A study of Homo sapiens with 12 samples.

Results

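Cells of the human keratinocyte line HaCaT, which is immortalised, were profiled by RNA sequencing after M5 together with lefamulin and after M5 together with retapamulin, and the 2 groups were compared gene by gene. Every gene of the deposited count table that passed a filter on low counts was taken, which gave 14207 of 22545 genes, in 3 lefamulin and 3 retapamulin libraries of 12 libraries in the series. All groups are labelled as wild type and of the HaCaT line. The other libraries are 3 of untreated cells and 3 of cells given M5 alone, and they are used here for the level at which each gene stood without a compound. The sources used here do not give doses, exposure times, the solvent or the make-up of M5, so whether the compounds were matched in dose or time is not known. The comparison is therefore between these treatments as they were given. The labels do not say whether the libraries of a group came from separate cultures, so the p-values measure the spread between these libraries, which may be technical. HaCaT is 1 immortalised line in culture, without the immune cells of skin.

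Lefamulin and retapamulin are pleuromutilin antibiotics, which stop bacterial protein synthesis by binding the large ribosomal subunit. They share a tricyclic core and differ in the side chain attached to it. M5 commonly names a mix of proinflammatory cytokines that gives keratinocytes features of psoriasis, a skin disease with fast-growing, inflamed epidermis. In that state keratinocytes make chemokines, antimicrobial proteins and S100 alarmins, and their late differentiation, in which proteins are cross-linked under the membrane into the cornified envelope, is disturbed. Keratinocytes also make much cholesterol, under a feedback loop in which the sterol sensors INSIG1 and SCAP set the activity of SREBP transcription factors on the synthesis enzymes and on lipoprotein uptake.

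The 6 libraries given a compound held 35642926 to 37520999 counted reads or fragments. Genes with at least 1 count numbered 17722 to 17810 in a lefamulin library and 17009 to 17118 in a retapamulin library. On the first principal component of the 6 libraries, with 48.5% of the variance, lefamulin libraries lay between 22.6 and 25.6 and retapamulin libraries between -26.2 and -20.3. On the second, with 16.9%, retapamulin replicate 1 stood apart at -28.9, while the others lay between -5.03 and 12.9. All 10 keratinocyte markers were expressed, with a summed level of 5024 to 5176 CPM with lefamulin and 5361 to 5497 CPM with retapamulin, although KRT14, a keratin that defines basal keratinocytes, had no more than 32 counts in any of these libraries. Levels are normalised CPM, the count divided by the scaled library size. Of the immune markers, CD68 made up nearly all of a sum of 39.7 to 43.0 CPM with lefamulin and 74.9 to 84.6 CPM with retapamulin, while PTPRC, which marks all leukocytes, had at most 1 count in a library. The fibroblast sum was 15.4 to 17.0 CPM against 9.34 to 11.1 CPM, nearly all of it COL1A1, and DCN had 0 counts in all 6 libraries. The endothelial sum was 118 to 123 CPM against 99.8 to 115 CPM, nearly all of it CDH5. Melanocyte markers summed to at most 1.48 CPM. The part of these levels in the differences below was not tested, and in bulk libraries fewer cells of a type and less RNA per cell cannot be told apart.

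Of the 14207 genes tested, edgeR called 5689 (40% of them) different between the compounds at an adjusted p under 0.05. With lefamulin 2672 genes were higher (18.8%) and 3017 were lower (21.2%). Most of these differences were small. The median size among called genes was 0.26 on the log2 scale, and 49.8% of them differed by less than 1.2-fold. A difference of at least 2-fold was called for 357 genes higher with lefamulin (2.51%) and 105 lower (0.739%). Without retapamulin replicate 1, 5140 genes of 14499 tested were called. The direction of small differences rests on the scaling between libraries: 47.0% of called genes were higher with lefamulin under the scaling used (TMM), 36.8% with RLE size factors and 72.8% on library totals alone, which moved the median difference of all genes from 0.01 to 0.10. All differences below are log2 values of lefamulin minus retapamulin and are to be read relative to that shift. Their standard error (SE) comes from the fit to all 12 libraries, with 3 libraries a group. Strong differences appear at every level of expression in the plot of difference against level, and larger ones upwards among genes of low level.

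**Figure D1:**
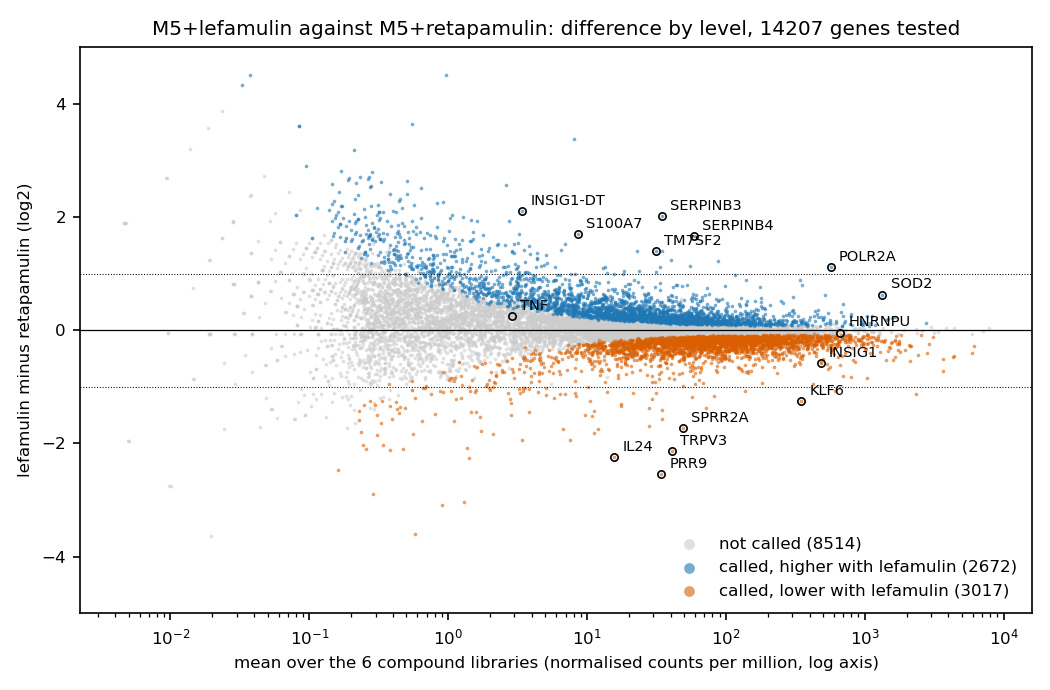
Each point is 1 gene, with its mean over the 6 compound libraries in normalised CPM (log axis) and its log2 difference of lefamulin minus retapamulin. Blue points are the 2672 genes called higher with lefamulin, orange points the 3017 called lower and grey points those not called (4 of them with a mean of 0 cannot be drawn), dotted lines mark 2-fold, and named genes are ringed.

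The largest differences were ranked among called genes with a mean of at least 5 CPM in either compound group and no overlap of libraries. The 15 largest in favour of lefamulin included those of 3 neighbouring protease inhibitors of keratinocytes (SERPINB3, SERPINB4 and SERPINB13) and of the alarmin S100A7. Also among them were the sterol reductase TM7SF2, the heat shock protein HSPA2, the export pump ABCC2, the oxygen sensor EGLN3 and the heterochromatin protein CBX5. The rest were the intermediate filament NES, the HES family member HES6, the transporters SLC6A11 and SLC2A12, and the non-coding RNAs INSIG1-DT and HCP5. The 15 largest in favour of retapamulin were those of the cornified envelope genes PRR9, SPRR2A and SPRR1A, the cytokines IL24 and CCL3, the cation channel TRPV3, the haem oxygenase HMOX1, the transcription factor KLF2, the YAP target ANKRD1, the protease GZMB, IGFN1, SYT14, IGDCC4 and the non-coding RNAs LINC01204 and ZC3H12A-DT. Within this ranking the differences ran from 1.27 for SLC2A12 to 2.10 for INSIG1-DT, and from -2.55 for PRR9 to -1.43 for ZC3H12A-DT. Over all called genes, at any level, 57 were at least 4-fold higher with lefamulin and 15 at least 4-fold lower. Among genes with a mean of at least 500 CPM, the largest differences upwards were those of POLR2A, SOD2, CXCL1, IDI1 and LCN2, and among the largest downwards were those of PRSS22, PLAU, MT2A and S100A2. POLR2A, the large subunit of RNA polymerase II, stood at 794, 743 and 787 CPM with lefamulin and at 353, 365 and 358 CPM with retapamulin, beside a mean of 348 ± 3.16 CPM (SD, n = 3) with M5 alone. The retapamulin libraries were thus near the M5 level and the lefamulin libraries all above it, and the difference was 1.11 ± 0.03 (SE; edgeR adjusted p 5.51e-18).

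**Figure D2:**
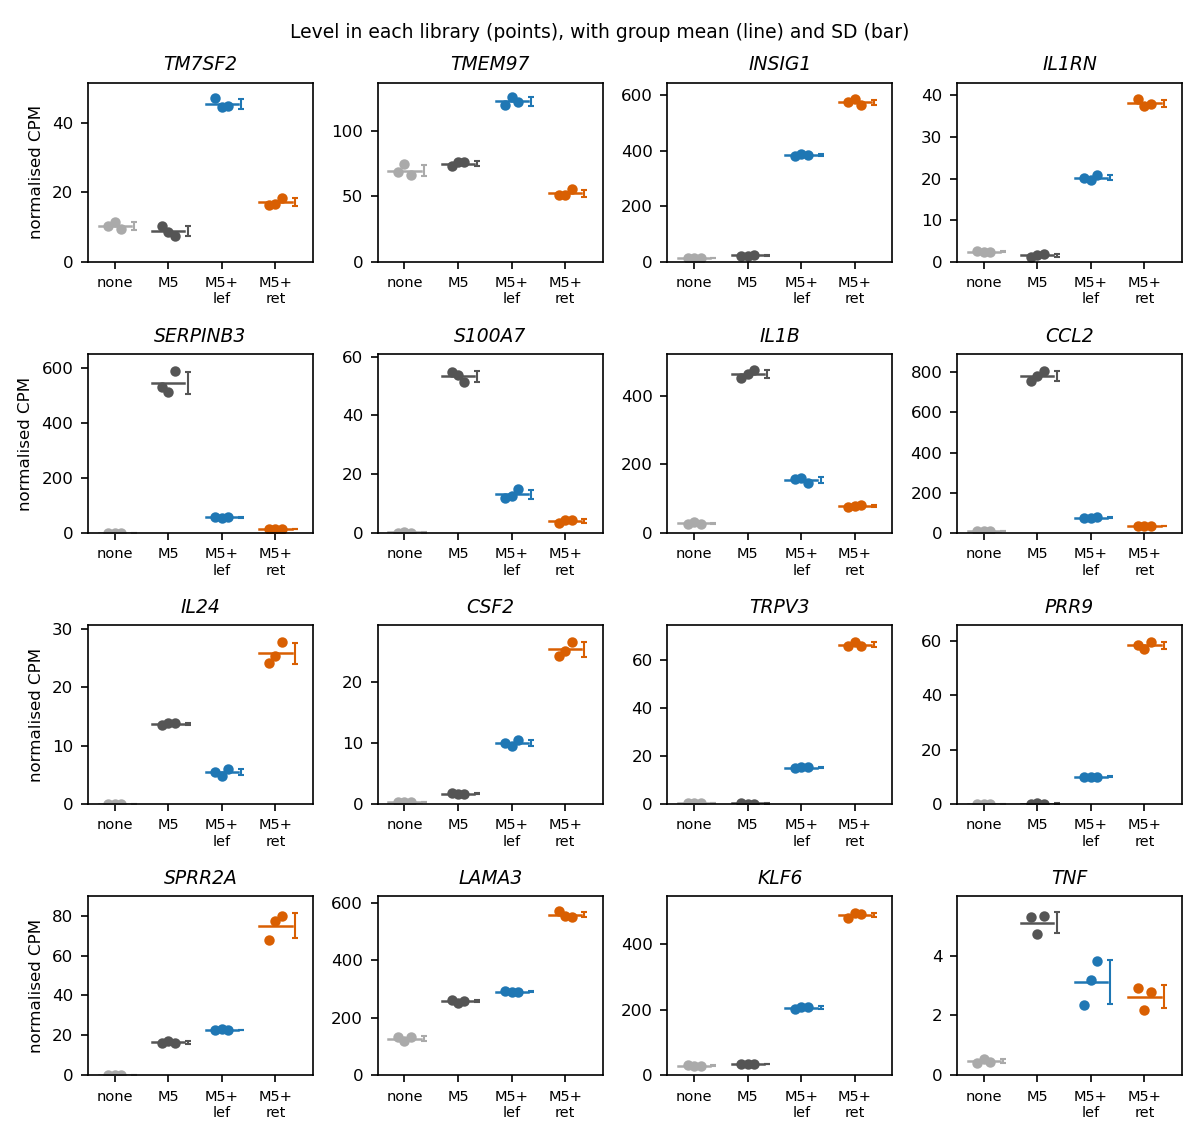
Normalised CPM (linear axis from 0) of 16 genes in each of the 12 libraries, as points with the group mean (line) and SD (bar, n = 3), for untreated cells (none), M5, M5 with lefamulin (lef) and M5 with retapamulin (ret). In all genes shown except TNF the 3 lefamulin libraries and the 3 retapamulin libraries do not overlap, as was so for 52% of all genes tested.

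Most cholesterol synthesis genes were higher with lefamulin, by small amounts, while the feedback sensor INSIG1 was lower. Of the 20 synthesis genes tested, 17 were called higher and 0 lower, with a median difference of 0.26 against 0.01 for all genes tested. With RLE size factors 16 were higher and 1 lower, and 7 were higher when a difference beyond 1.2-fold was tested for. The means of all of them but PMVK were higher with either compound than with M5 alone. TM7SF2, a sterol C14 reductase, stood at 47.1, 44.6 and 44.9 CPM with lefamulin and at 16.5, 16.8 and 18.5 CPM with retapamulin, against a mean of 8.80 ± 1.47 CPM with M5. Its difference of 1.40 ± 0.08 (edgeR adjusted p 4.41e-12) was the largest of the list. The next was that of MVD, a decarboxylase of the mevalonate pathway (0.51 ± 0.05, adjusted p 5.02e-09). IDI1, the isopentenyl diphosphate isomerase, averaged 809 and 585 CPM beside 104 CPM with M5. FDPS and MVK were among those not called, with differences of -0.08 and 0.09.

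The 17 genes of sterol sensing and lipoprotein uptake divided: 4 were called higher and 6 lower, with a median of -0.04 that turned to 0.05 on library totals alone, where 8 were higher and 3 lower. INSIG1, which retains the SREBP escort protein in the endoplasmic reticulum, stood at 382, 388 and 384 CPM with lefamulin and at 575, 585 and 566 CPM with retapamulin. All 3 lefamulin libraries were below all 3 retapamulin libraries, and both groups were far above the M5 mean of 22.3 ± 2.70 CPM. The difference was -0.58 ± 0.04 (edgeR adjusted p 7.61e-11). NPC1, which exports cholesterol from lysosomes, was also lower (-0.27 ± 0.03). In the other direction, TMEM97, a sterol-regulated endoplasmic reticulum protein that binds NPC1, stood at 119, 126 and 122 CPM with lefamulin and at 50.6, 51.0 and 55.6 CPM with retapamulin, so that lefamulin libraries lay above and retapamulin libraries below the M5 mean of 74.9 ± 1.80 CPM. MYLIP, a ubiquitin ligase that limits lipoprotein uptake, was higher at 6.40 against 4.12 CPM (difference 0.63).

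Fatty acid synthesis, elongation and desaturation genes were called higher in 10 of 17 cases and lower in 2, with a median of 0.12. Without retapamulin replicate 1, the library that stood apart, 6 were higher, and 3 were higher beyond 1.2-fold. ACLY, which makes cytosolic acetyl-CoA, averaged 1784 ± 37.9 CPM with lefamulin and 1513 ± 29.8 CPM with retapamulin (0.24 ± 0.03), and the desaturase FADS2 averaged 11.5 ± 0.625 CPM against 6.32 ± 0.638 CPM (0.87 ± 0.12). The elongase ELOVL4 had the largest difference of the list, 2.09, at only 0.262 against 0.0591 CPM, followed by MLXIPL, a glucose-responsive regulator of the pathway (0.90). The 2 genes called lower were the elongases ELOVL1 (-0.31) and ELOVL7 (-0.17). Not called were 2 enzymes of its main steps: the fatty acid synthase FASN had a difference of -0.05 (95% interval -0.12 to 0.02) and the desaturase SCD one of 0.05 (-0.01 to 0.12).

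The stretch between INSIG1 and INSIG1-DT is shown with the promoters of TM7SF2, MVD and TMEM97, sterol genes that were higher, because INSIG1 and its divergent non-coding partner INSIG1-DT, which start from opposite strands of 1 short region, went in opposite directions. INSIG1-DT stood at 5.97, 4.998 and 5.73 CPM with lefamulin and at 1.12, 1.53 and 1.22 CPM with retapamulin (2.10 ± 0.23, edgeR adjusted p 1.5e-07), against a mean of 0.280 ± 0.13 CPM with M5. INSIG1 itself, as given above, was lower with lefamulin. Since the sources used here do not give the strandedness of the libraries, the count of a divergent RNA is less certain where it meets another transcript, but the annotated starts lie 219 bases apart. Sequences are from RefSeq (GRCh38.p14), 5′ to 3′ on the strand of the gene, with CCAAT on either strand in capitals. The sterol element core TCACNCCAC was searched as well. The E-box letters CACGTG, which the stretch between the INSIG1 starts holds, are not marked. The stretch between the starts, chr7:155297659-155297877, is given on the strand of INSIG1. Its letters thus run from the start of INSIG1-DT to that of INSIG1, whatever the order of names in its label. The others are the 250 bases before the start of TM7SF2 (chr11:65111622-65111871, plus strand), MVD (chr16:88663092-88663341, minus strand) and TMEM97 (chr17:28318950-28319199, plus strand).
INSIG1 to INSIG1-DT: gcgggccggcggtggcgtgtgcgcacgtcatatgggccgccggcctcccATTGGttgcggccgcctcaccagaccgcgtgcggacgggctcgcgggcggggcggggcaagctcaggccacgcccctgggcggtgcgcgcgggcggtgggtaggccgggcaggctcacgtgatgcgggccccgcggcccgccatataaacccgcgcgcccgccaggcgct
TM7SF2: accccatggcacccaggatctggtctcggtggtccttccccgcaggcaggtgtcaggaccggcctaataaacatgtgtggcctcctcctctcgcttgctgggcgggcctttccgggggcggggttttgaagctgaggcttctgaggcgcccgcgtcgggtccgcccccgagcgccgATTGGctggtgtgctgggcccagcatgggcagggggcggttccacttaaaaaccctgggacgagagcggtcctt
MVD: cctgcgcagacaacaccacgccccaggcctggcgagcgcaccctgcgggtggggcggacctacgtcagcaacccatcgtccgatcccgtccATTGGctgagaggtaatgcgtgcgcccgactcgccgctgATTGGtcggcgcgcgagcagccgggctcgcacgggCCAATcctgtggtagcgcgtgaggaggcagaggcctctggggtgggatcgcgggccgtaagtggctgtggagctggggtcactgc
TMEM97: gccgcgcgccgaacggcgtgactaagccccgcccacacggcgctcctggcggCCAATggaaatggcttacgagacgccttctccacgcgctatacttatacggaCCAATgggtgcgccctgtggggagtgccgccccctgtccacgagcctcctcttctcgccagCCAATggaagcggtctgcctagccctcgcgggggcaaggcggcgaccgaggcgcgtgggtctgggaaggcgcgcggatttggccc
CCAAT occurs in each of the 4, 1 time between the INSIG1 starts and in TM7SF2 and 3 times in MVD and in TMEM97. Among cholesterol synthesis genes, 13 of 15 with a listed promoter held CCAAT on either strand in the 250 bases before a start, against 40.9% of 11129 tested genes with one, and 0 of 15 held TCACNCCAC, against 1.12%. CCAAT was found in 44.7% of genes called higher with lefamulin and in 39.2% of those called lower. It was not particular to sterol genes or to higher genes. Among genes with a listed promoter, it was held by 23 of 29 mitosis genes (median difference of the holders 0.12) and 14 of 14 histone genes (0.46). Holders were also 19 of 21 endoplasmic reticulum chaperone and unfolded protein response genes (-0.19) and 14 of 21 genes of the ATF4 amino acid response (-0.23). A match describes letters in this window and says nothing of a factor's binding.

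Inflammatory genes did not move as one between the compounds. Genes of a list of CC and other chemokines, which draw monocytes and lymphocytes among other cells, were higher with lefamulin in 5 of 6 cases. Of this list 0 were lower, and the median was 1.12. CCL2 stood at 73.3, 75.1 and 79.3 CPM with lefamulin and at 35.5, 34.5 and 34.1 CPM with retapamulin, while M5 alone gave 783 ± 25.03 CPM. Both compound groups were thus far below M5, with the lefamulin libraries all above the retapamulin ones (1.13 ± 0.04, edgeR adjusted p 4.32e-16). CCL5 averaged 18.6 ± 1.24 CPM against 8.55 ± 0.82 CPM, and CCL26 and CCL28 were called higher at under 1 CPM. CCL3, which was not on that list and was named for its size, went the other way, at 5.04 ± 0.449 against 14.2 ± 0.604 CPM (-1.49 ± 0.13), and its close paralogs make its count less certain. Of 8 neutrophil-attracting and other CXC chemokines, 2 were called higher and 3 lower. The lower calls fell to 0 without lefamulin replicate 3, without retapamulin replicate 3 and on library totals alone, and to 1 without lefamulin replicate 2 or retapamulin replicate 1. Their median of 0.10 turned to -0.01 or -0.02 without lefamulin replicate 2, retapamulin replicate 2 or retapamulin replicate 3. CXCL1 averaged 627 ± 8.64 against 410 ± 13.8 CPM (0.61 ± 0.03) and CXCL3 was higher as well (0.53), whereas PPBP (-0.41) and CXCL5 (-0.29) were among the 3 lower. CXCL8, or interleukin-8, was at 548, 540 and 583 CPM against 556, 557 and 553 CPM, a difference of 0.01 with a 95% interval of -0.07 to 0.08.

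Within the IL-1 and IL-36 family, the agonists IL1A and IL1B were higher with lefamulin and the antagonists IL1RN and IL36RN lower. The counts were 3 of 11 higher and 6 lower, with a median of -0.21. IL1B stood at 159, 160 and 146 CPM with lefamulin and at 74.98, 79.2 and 81.8 CPM with retapamulin, both below the M5 mean of 464 ± 10.6 CPM (0.98 ± 0.05, edgeR adjusted p 6.13e-14). IL1A averaged 96.0 ± 2.85 against 70.9 ± 2.75 CPM (0.44 ± 0.05). By contrast IL1RN, the IL-1 receptor antagonist, stood at 20.1, 19.7 and 20.8 CPM with lefamulin and at 39.0, 37.4 and 37.8 CPM with retapamulin, both above the M5 mean of 1.496 ± 0.371 CPM (-0.91 ± 0.08, adjusted p 2.07e-09). IL36RN, the IL-36 receptor antagonist, averaged 8.95 ± 0.439 against 19.0 ± 1.44 CPM (-1.08 ± 0.10), and IL1RL1, the receptor of IL-33, averaged 17.8 ± 0.64 against 41.4 ± 2.43 CPM (-1.21 ± 0.06). The agonist IL36G was also lower (-0.21), so not all ligands went with IL1B.

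Of 18 genes of the IL-6, IL-17, IL-20 and colony-stimulating groups, 3 were called higher with lefamulin and 8 lower, with a median of -0.23. IL24, a cytokine of the IL-20 group, stood at 5.53, 4.86 and 5.98 CPM with lefamulin and at 24.2, 25.4 and 27.8 CPM with retapamulin, on either side of the M5 mean of 13.7 ± 0.215 CPM. The difference was -2.24 ± 0.10 (edgeR adjusted p 1.24e-14). CSF2, which encodes GM-CSF, was at 9.97 ± 0.47 against 25.3 ± 1.17 CPM, both above the 1.66 ± 0.0887 CPM of M5 (-1.35 ± 0.09). CSF3, which encodes G-CSF, averaged 105 ± 0.422 against 175 ± 1.30 CPM, both below the M5 level of 317 CPM, and LIF averaged 685 ± 10.95 against 1015 ± 26.6 CPM beside 675 CPM with M5. TNFSF10, the death ligand TRAIL, was higher with lefamulin (1.19, at 7.10 against 3.12 CPM), and so was IL19 (1.93), which averaged 0.346 and 0.0881 CPM beside 44.7 CPM with M5 and whose libraries overlapped between the compounds. IL6 was not called, with 5.82 against 6.13 CPM.

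**Figure D3:**
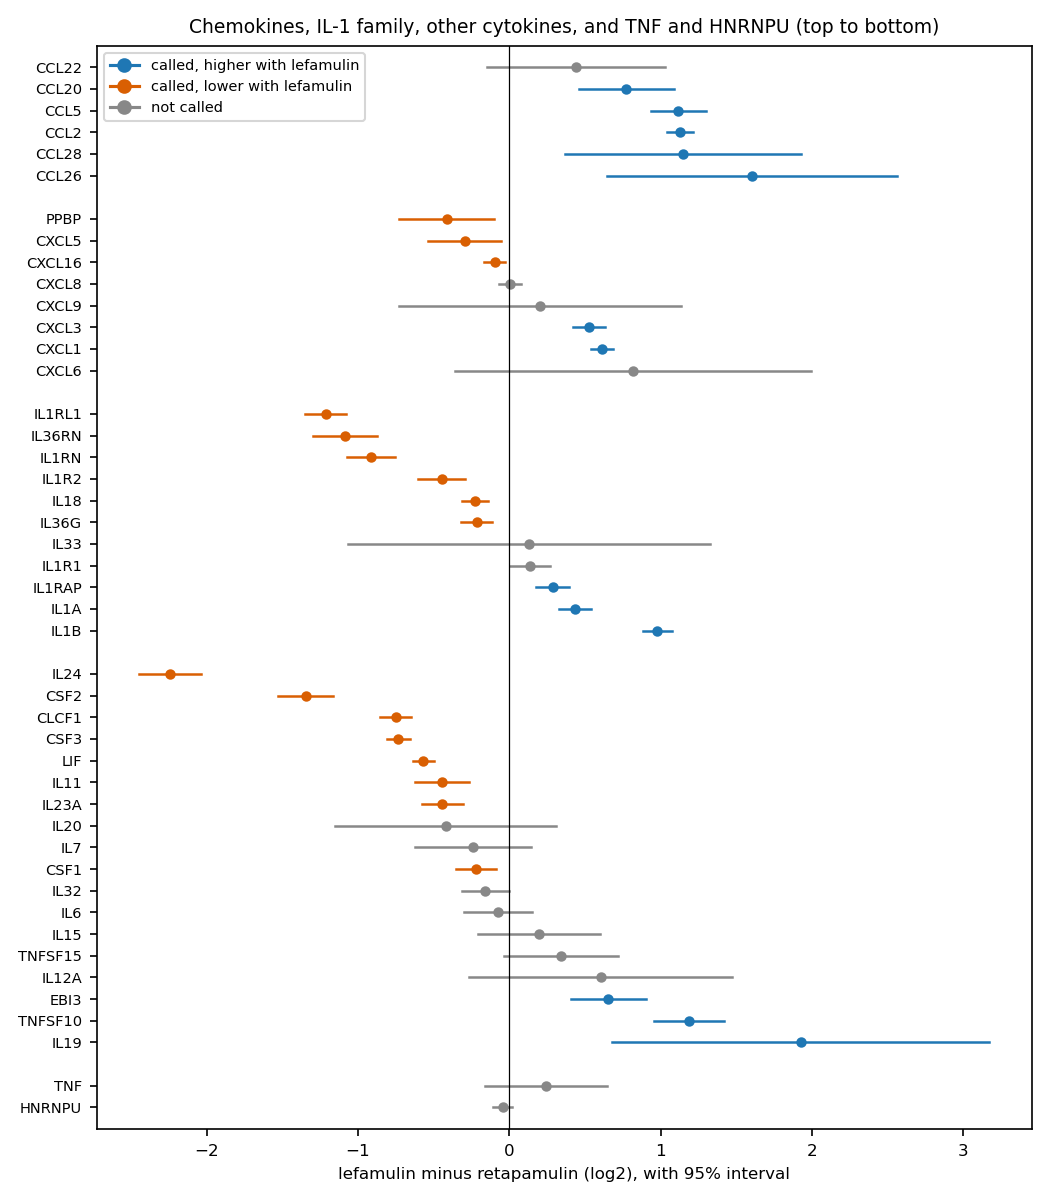
Log2 difference of lefamulin minus retapamulin with its 95% interval for listed CC and other chemokines, CXC chemokines, the IL-1 and IL-36 family, other cytokines, and TNF and HNRNPU, from top to bottom. Blue marks genes called higher with lefamulin and orange those called lower. The listed CC and other chemokines lie to the right, IL-1 family antagonists to the left, and the intervals of TNF and HNRNPU include 0.

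The title of the series names TNF and hnRNP-U, and neither gene was called between the compounds. TNF stood at 2.35, 3.19 and 3.82 CPM with lefamulin and at 2.92, 2.18 and 2.80 CPM with retapamulin, against 5.12 ± 0.34 CPM with M5. The libraries overlapped, and the difference of 0.24 had a 95% interval of -0.16 to 0.65 (edgeR adjusted p 0.341), which spans 0 and does not show that the compounds act alike. HNRNPU stood at 647, 661 and 653 CPM with lefamulin and at 685, 667 and 671 CPM with retapamulin, beside 974 ± 31.2 CPM with M5. The 3 lefamulin libraries were all below the 3 retapamulin libraries, an order without overlap that 52% of all genes tested showed in one direction or the other, and the difference of -0.04 had a narrow interval of -0.10 to 0.01 (adjusted p 0.228). Among 24 hnRNP genes, which bind and process nuclear RNA, 0 were called higher and 13 lower (54.2%) with lefamulin, with a median of -0.10. In the highest of 5 bins of all genes by level 46.7% were called lower, with a median of -0.08. No trait of hnRNP genes is read from these counts. On library totals alone 3 of the 24 were higher and 7 lower. PCBP1 averaged 207 ± 3.59 against 277 ± 2.62 CPM (-0.42 ± 0.03) and HNRNPA1 1121 ± 9.28 against 1467 ± 18.2 CPM (-0.39 ± 0.03).

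Of 16 genes of TNF signalling, 1 was called higher with lefamulin and 9 lower, with a median of -0.11. Among all genes tested 21.2% were called lower, and in the 2 highest of 5 bins by level 46.7% and 30.9%. No trait of TNF signalling genes is read from these counts. Without lefamulin replicate 2 or retapamulin replicate 3, 5 were lower. On library totals alone 2 were higher and 4 lower, and on log2 FPKM 3 were higher and 3 lower. TRAF1, an adaptor of TNF receptors, averaged 6.73 ± 0.436 against 13.5 ± 0.519 CPM (edgeR adjusted p 1.57e-07), and the caspase inhibitor BIRC3 was lower as well (-0.50). NF-kB subunits and feedback genes were called higher in 8 of 20 cases and lower in 7. Their median of -0.02 changed sign on library totals alone (0.07) and without retapamulin replicate 2 (0.01). SOD2, the mitochondrial superoxide dismutase, stood at 1624, 1648 and 1612 CPM with lefamulin and at 1047, 1073 and 1043 CPM with retapamulin, both below 2923 CPM with M5 (0.63 ± 0.03). TNFAIP2 was higher too (0.75), whereas TNFAIP3, the deubiquitinase A20 that limits NF-kB, averaged 307 ± 1.71 against 413 ± 8.04 CPM (-0.43 ± 0.04) beside 317 CPM with M5.

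Epidermal defence genes were divided between the compounds. Of 13 antimicrobial and S100 alarmin genes, 7 were called higher with lefamulin and 3 lower, with a median of 0.22. S100A7, or psoriasin, stood at 11.9, 12.6 and 14.8 CPM with lefamulin and at 3.22, 4.48 and 4.40 CPM with retapamulin, below the M5 mean of 53.3 ± 1.87 CPM in both (1.69 ± 0.12, edgeR adjusted p 4.22e-11). S100A9, a subunit of calprotectin, averaged 154 ± 3.35 against 104 ± 3.53 CPM (0.57 ± 0.03), and LCN2, which starves bacteria of iron, averaged 753 ± 10.9 against 606 ± 19.98 CPM (0.31 ± 0.04). S100A8, the partner of S100A9, averaged 1.32 and 0.936 CPM beside 113 CPM with M5 and was not called (0.50, 95% interval 0.07 to 0.92, adjusted p 0.0558). Lower with lefamulin were the beta-defensin DEFB4A (-1.45 ± 0.26), S100A2 at 494, 492 and 535 against 857, 890 and 911 CPM (-0.81 ± 0.05), and the antimicrobial ribonuclease RNASE7, which averaged 87.1 ± 4.03 against 125 ± 3.33 CPM, both above 5.31 CPM with M5.

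The clade B serpins were higher in 4 of 9 cases and lower in 3, with a median of 0.05. SERPINB3 stood at 55.7, 53.8 and 57.0 CPM with lefamulin and at 13.8, 13.9 and 13.5 CPM with retapamulin, both far below the M5 mean of 544 ± 40.2 CPM. The difference of 2.01 ± 0.06 (edgeR adjusted p 7.72e-18) was accompanied by 1.66 ± 0.05 for its near-identical paralog SERPINB4, so reads of one may be counted in the other. SERPINB13 averaged 50.2 ± 3.13 against 19.0 ± 1.11 CPM (1.40 ± 0.06). SERPINB2 (-0.49) and SERPINB7 (-0.38), members of the same clade, were lower with lefamulin. Complement genes were higher in 6 of 11 cases and lower in 1, with a median of 0.21. C3, the central complement protein, averaged 448 ± 12.3 against 256 ± 1.64 CPM (0.81 ± 0.03). Interferon-stimulated genes were higher in 12 of 31 and lower in 3, with a median of 0.20, and 19 were higher on library totals alone. IFIT1 was among the higher (0.86, 1.58 against 0.869 CPM), and so was GBP1 (0.59). The lower were led by RSAD2, an antiviral enzyme at 0.0468 against 0.277 CPM (-2.48 ± 0.81), and GBP2, whose libraries overlapped, followed (-0.84, 0.802 against 1.44 CPM). MHC class I and antigen processing genes were higher in 8 of 16 and lower in 3, with a median of 0.15, and 1 was lower without lefamulin replicate 2 or retapamulin replicate 3. The proteasome subunit PSMB8 (0.32) and HLA-F (0.36) had the largest differences upwards, and the peptide transporter TAP2 (-0.27) and the regulator NLRC5 (-0.25) the largest downwards.

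Most immediate early and MAP kinase feedback genes were lower with lefamulin, and AP-1 subunits and EGF family genes were so in part. Of 10 AP-1 subunits, 0 were called higher and 6 lower, with a median of -0.31. AP-1 is a pair of Jun and Fos proteins that switches on genes after growth and stress signals. FOSL1 stood at 413, 408 and 424 CPM with lefamulin and at 644, 660 and 703 CPM with retapamulin, all above the M5 mean of 102 ± 2.48 CPM (-0.69 ± 0.03, edgeR adjusted p 1.35e-13). JUN averaged 99.0 ± 2.14 against 163 ± 2.12 CPM, beside 50.6 CPM with M5 (-0.72 ± 0.04). Among 16 immediate early genes, 1 was higher and 11 were lower, with a median of -0.29. KLF6 stood at 202, 209 and 209 CPM with lefamulin and at 482, 496 and 492 CPM with retapamulin, against 33.2 ± 0.137 CPM with M5 (-1.25 ± 0.03). The 2 groups stood far apart, and both were far above M5. EGR1 averaged 39.8 ± 2.32 against 103 ± 5.53 CPM (-1.37 ± 0.06) and KLF2 3.11 ± 0.213 against 11.9 ± 2.07 CPM (-1.93 ± 0.20). The orphan nuclear receptor NR4A3 alone was higher with lefamulin, at 3.496 against 1.75 CPM.

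Many MAP kinase feedback genes are induced by ERK and dampen it. Of 18 genes on that list, 12 were called lower and 1 higher, with a median of -0.28. The phosphatase DUSP5 averaged 172 ± 8.30 against 271 ± 4.40 CPM (-0.66 ± 0.04), and the inhibitor SPRY2 was lower by a similar amount (-0.63). Ligands and receptors of the EGF family were lower in 6 of 12 and higher in 1. Their median of -0.06 changed to 0.03 on library totals alone. AREG, an EGF receptor ligand raised in psoriatic skin, stood at 34.0, 36.8 and 34.2 CPM with lefamulin and at 74.1, 81.3 and 82.1 CPM with retapamulin, with the lefamulin libraries near the 39.6 ± 2.17 CPM of M5 (-1.18 ± 0.05, edgeR adjusted p 2.9e-14). BTC, another ligand, went the other way at 3.39 against 1.18 CPM (1.52). YAP and TEAD targets were lower in 9 of 14 and higher in 1 (5 lower and 1 higher on library totals alone), with a median of -0.15. ANKRD1, the best known of them, stood at 13.6, 12.7 and 13.0 CPM with lefamulin and at 39.6, 44.9 and 42.9 CPM with retapamulin, beside 7.71 ± 0.678 CPM with M5 (-1.70 ± 0.07).

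Late differentiation genes of the cornified envelope were the list with the lowest median, -0.92. Of 13 tested, 8 were called lower with lefamulin, 6 of them at least 2-fold, and 0 were called higher. PRR9, a proline-rich precursor protein, stood at 10.1, 9.88 and 10.03 CPM with lefamulin and at 58.4, 57.2 and 59.7 CPM with retapamulin, where M5 alone gave 0.109 ± 0.0737 CPM (-2.55 ± 0.09, edgeR adjusted p 1.16e-16). SPRR2A, a small proline-rich cross-linking substrate, stood at 22.6, 22.9 and 22.6 CPM against 68.0, 77.3 and 80.0 CPM, with 16.3 ± 0.616 CPM under M5 (-1.73 ± 0.07), and SPRR1A averaged 5.62 ± 0.297 against 16.1 ± 0.639 CPM (-1.52 ± 0.18). The SPRR2 genes are close paralogs, so their separate counts are less certain. SBSN, a secreted product of suprabasal cells, had a difference of -3.08 ± 0.43 at 0.187 against 1.61 CPM. IVL, TGM1, FLG, DMKN and CNFN were not called. The first 4 had differences from -0.18 to -0.10 and CNFN one of 0.84 (95% interval -0.17 to 1.85), and IVL, FLG and CNFN had means below 0.5 CPM in both groups. TRPV3, a warmth-sensing channel of keratinocytes, stood at 15.04, 15.3 and 15.3 CPM with lefamulin and at 66.2, 67.8 and 66.1 CPM with retapamulin, from 0.180 ± 0.1 CPM with M5 (-2.13 ± 0.07, adjusted p 2.23e-17).

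The promoters of PRR9, SPRR2A and SPRR1A are shown beside that of S100A7, a gene of the same chromosome that went the other way and was picked with its lack of the motif known, because 8 of 9 cornified envelope genes with a listed promoter held an AP-1 motif there, against 6.50% of tested genes. The motif searched was TGANTCA, which is its own reverse complement, in the 250 bases before the start, and it stands in capitals. Sequences are from RefSeq (GRCh38.p14), 5′ to 3′ on the strand of the gene, at chr1:153217334-153217583 (PRR9, plus strand), chr1:153057513-153057762 (SPRR2A, minus strand), chr1:152983831-152984080 (SPRR1A, plus strand) and chr1:153460652-153460901 (S100A7, minus strand).
PRR9: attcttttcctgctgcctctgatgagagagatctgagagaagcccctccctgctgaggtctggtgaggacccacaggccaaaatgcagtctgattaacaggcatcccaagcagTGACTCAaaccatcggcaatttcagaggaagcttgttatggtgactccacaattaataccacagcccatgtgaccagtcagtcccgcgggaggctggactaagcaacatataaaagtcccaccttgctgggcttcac
SPRR2A: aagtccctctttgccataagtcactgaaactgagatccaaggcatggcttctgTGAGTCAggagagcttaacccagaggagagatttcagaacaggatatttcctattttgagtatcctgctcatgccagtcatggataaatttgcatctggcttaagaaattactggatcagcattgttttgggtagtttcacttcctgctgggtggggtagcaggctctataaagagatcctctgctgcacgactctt
SPRR1A: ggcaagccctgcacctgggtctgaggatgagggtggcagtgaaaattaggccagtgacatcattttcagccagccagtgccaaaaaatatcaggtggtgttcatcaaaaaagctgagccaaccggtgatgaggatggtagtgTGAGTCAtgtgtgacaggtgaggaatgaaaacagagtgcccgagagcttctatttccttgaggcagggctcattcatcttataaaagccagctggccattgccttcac
S100A7: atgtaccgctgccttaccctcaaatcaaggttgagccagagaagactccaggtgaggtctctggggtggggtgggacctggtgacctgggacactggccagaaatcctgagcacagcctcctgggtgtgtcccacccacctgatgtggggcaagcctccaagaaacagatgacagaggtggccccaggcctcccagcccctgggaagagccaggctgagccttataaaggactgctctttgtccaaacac
The motif ends 131 bases before the start of PRR9, 191 before that of SPRR2A and 102 before that of SPRR1A, and these letters do not occur in the S100A7 window. Over all genes, TGANTCA was held by 8.93% of those called lower with lefamulin, 4.80% of those called higher and 6.14% of those not called. IVL, FLG and DMKN held the motif too and were not called. LCN2, which was higher, held it as well. It was 1 of 4 holders among 8 antimicrobial and S100 genes with a listed promoter, and the holders had a median difference of -0.66. RNASE7 and S100A2, which were lower, were others. Of 8 clade B serpins with a listed promoter 5 held the motif, with a median difference of -0.27 among the holders. As above, a match describes letters and not binding.

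Most genes of a list of basal keratinocyte and hemidesmosome genes were lower with lefamulin. Of 17 tested, 13 were called lower and 2 higher, with a median of -0.30. In the highest of 5 bins of all genes by level, 46.7% were called lower, with a median of -0.08. LAMA3, a laminin chain of the basement membrane, averaged 292 ± 0.631 against 560 ± 9.80 CPM (-0.94 ± 0.04), and LAMB3, another, 1723 ± 38.2 against 2519 ± 43.6 CPM (-0.55 ± 0.03). TP63, the master regulator of basal identity (0.40), and COL7A1, the anchoring fibril collagen (0.30), were higher. PLAU, the urokinase plasminogen activator, averaged 748 ± 4.23 against 1342 ± 25.5 CPM (-0.84 ± 0.03), and the serine protease PRSS22 391 ± 22.7 against 826 ± 16.2 CPM (-1.08 ± 0.04). Desmosomal and cadherin genes were lower in 8 of 13 cases and higher in 1, with a median of -0.11, and tight junction genes lower in 8 of 11 and higher in 2, with a median of -0.16. On library totals alone 2 and 3 of these were lower, and beyond 1.2-fold 0 and 1. These counts stand beside the 46.7% called lower in that highest bin, and no trait of junction genes is read from them. Without retapamulin replicate 2, 5 tight junction genes were lower. DSC2 (-0.32) and DSG2 (-0.19), cadherins of desmosomes, were lower, and CLDN1 was higher (0.19). CLDN4, a claudin of tight junctions, averaged 1381 ± 24.0 against 1915 ± 49.7 CPM (-0.47 ± 0.03).

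**Figure D4:**
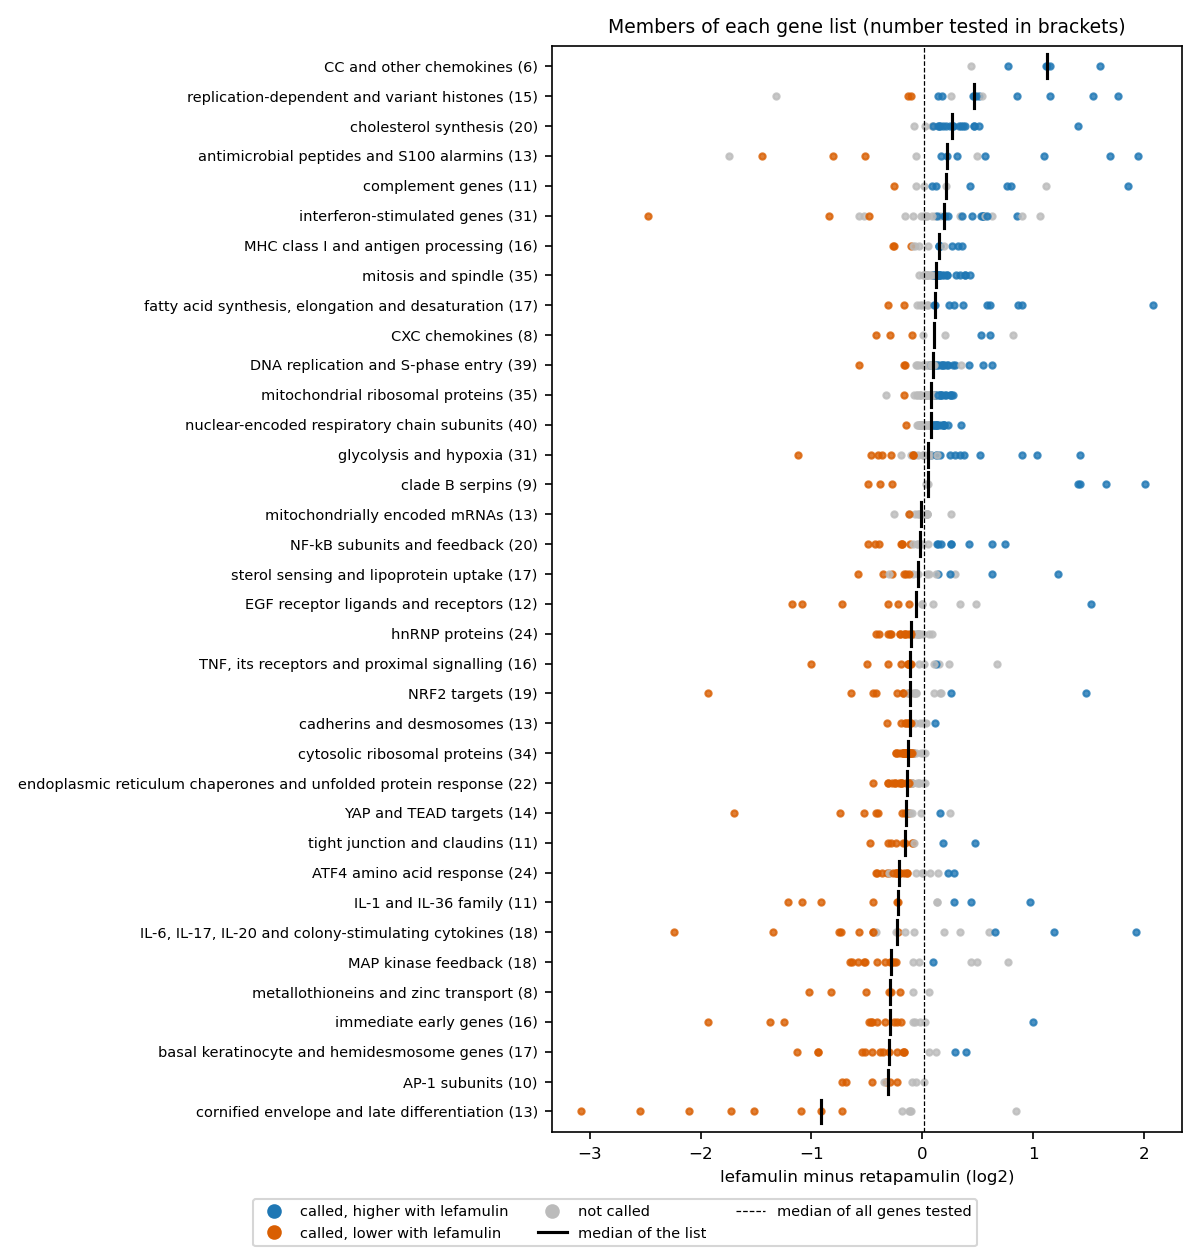
Log2 difference of lefamulin minus retapamulin for every tested member of 36 gene lists, 1 point per gene, blue where called higher with lefamulin, orange where called lower and grey where not called. Black bars are list medians, from 1.12 for CC and other chemokines down to -0.92 for cornified envelope genes, and the dashed line is the median of all genes tested.

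Genes of several stress responses were called lower more often than higher, by small amounts. So were abundant genes of any kind. In the highest of 5 bins of all genes by level 46.7% were called lower and 12.6% higher, and in the next 30.9% and 17.3%. The part of level in the counts below was not tested. Of 24 genes of the ATF4 amino acid response, 2 were called higher and 15 lower, with a median of -0.21 (6 higher and 11 lower on library totals alone, and 0 and 1 beyond 1.2-fold). DDIT4, an inhibitor of mTORC1, was lower (-0.42, at 274 against 367 CPM), and so was the glutathione-degrading enzyme CHAC1 (-0.41), whereas the hormone STC2 (0.29) and the serine synthesis enzyme PSPH (0.23) were higher. Endoplasmic reticulum chaperones and genes of the unfolded protein response were lower in 15 of 22 cases and higher in 0, with a median of -0.14, in 10 on library totals alone and in 1 beyond 1.2-fold. HERPUD1 (-0.44) and DNAJB9 (-0.31), 2 genes of that response, had the largest differences. HSPA5, the main chaperone of that compartment, averaged 1907 ± 23.0 against 2305 ± 31.4 CPM (-0.27 ± 0.03), both above 1408 CPM with M5. NRF2 targets were lower in 9 of 19 and higher in 2, with a median of -0.11, beside 46.7% called lower in the highest of 5 bins of all genes by level and 30.9% in the next. HMOX1 stood at 1.08, 1.497 and 1.65 CPM with lefamulin and at 5.82, 5.19 and 5.19 CPM with retapamulin (-1.94 ± 0.26, edgeR adjusted p 2.55e-06), and the thioredoxin reductase TXNRD1 averaged 437 ± 5.15 against 684 ± 8.97 CPM (-0.65 ± 0.03). The export pump ABCC2, also a member, was higher at 5.64 ± 0.758 against 2.02 ± 0.109 CPM (1.48 ± 0.19). Metallothionein and zinc transport genes were lower in 6 of 8 and higher in 0, with a median of -0.29. MT2A averaged 575 ± 59.2 against 1016 ± 42.1 CPM (-0.82 ± 0.06), and metallothionein paralogs may share reads.

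Glycolysis and hypoxia genes were divided, with 12 of 31 called higher and 7 lower and a median of 0.05, and with RLE size factors 10 were higher and 11 lower. EGLN3, a prolyl hydroxylase that marks HIF for destruction, stood at 8.18, 10.4 and 9.63 CPM with lefamulin and at 2.86, 3.57 and 4.08 CPM with retapamulin, with the lefamulin libraries around the M5 mean of 8.43 ± 0.33 CPM and the retapamulin libraries all below it (1.42 ± 0.14, edgeR adjusted p 1.44e-08). The aldolase ALDOC averaged 42.1 ± 1.35 against 20.6 ± 0.655 CPM (1.03 ± 0.06), whereas the glucose transporter SLC2A3 was lower at 4.34 against 9.44 CPM (-1.12).

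Among 35 genes of mitosis and the spindle, 21 were called higher and 0 lower, with a median of 0.12. With RLE size factors 13 were higher and on library totals alone 32, and 0 were lower in either. CDC25B, a phosphatase that starts mitosis, had the largest difference (0.43 ± 0.04) and the kinesin KIF20A the next (0.39). CENPF, a kinetochore protein, averaged 341 ± 10.005 against 277 ± 5.86 CPM (0.30 ± 0.05, edgeR adjusted p 5.21e-05). DNA replication genes were higher in 15 of 39 cases and lower in 3, with a median of 0.10 (9 and 4 with RLE size factors, 29 and 1 on library totals alone, 9 and 1 without retapamulin replicate 3). The helicase subunit MCM2 averaged 118 ± 3.27 against 88.4 ± 1.47 CPM (0.42 ± 0.04) and GINS4, a subunit of the same helicase complex, 34.5 ± 0.832 against 23.6 ± 0.784 CPM (0.54 ± 0.05). Both were below their M5 levels of 246 and 44.6 CPM in either compound group. CCNE1, a G1 cyclin, was lower (-0.57). Histone genes were higher in 10 of 15 and lower in 2, with a median of 0.46. H2BC21, a histone gene with polyadenylated transcripts, stood at 4.42, 5.05 and 4.64 CPM against 1.54, 1.68 and 1.63 CPM (1.54 ± 0.17), and CBX5, which binds the silenced form of histone H3, averaged 33.1 ± 1.76 against 12.6 ± 0.381 CPM, with the lefamulin libraries near the 36.4 ± 1.35 CPM of M5.

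Mitochondria hold ribosomes of bacterial type, and the genes of both kinds of ribosome are given here. Mitochondrial ribosomal protein genes were called higher with lefamulin in 13 of 35 cases and lower in 1, with a median of 0.08, and nuclear-encoded respiratory chain genes in 15 of 40 and 1, with a median of 0.08. On library totals alone 27 and 29 were higher, and with RLE size factors 9 and 8. MRPL16 had the largest difference of the first list (0.28, 26.7 against 22.0 CPM) and NDUFA2 that of the second (0.35, 24.4 against 19.2 CPM). The 13 mRNAs encoded in mitochondrial DNA had a median difference of -0.01, which changed to 0.08 on library totals alone, and 1 of them was called. That was CYTB, at 2976 against 3239 CPM (-0.12), with libraries that overlapped. Cytosolic ribosomal protein genes were lower in 28 of 34 cases and higher in 0, with a median of -0.13, but on library totals alone 6 were lower and 2 higher. RPLP0, a stalk protein of the ribosome, averaged 1619 ± 12.7 against 1909 ± 43.9 CPM (-0.24 ± 0.03). Of all genes in the highest of 5 bins by level, 46.7% were called lower, with a median difference of -0.08. Bins with median levels of 24.1 and 58.6 CPM had 24.4% and 17.3% called higher, with median differences of 0.02 and -0.03. The part of level in the counts of these lists was not tested. No contrast between the 2 kinds of ribosome is read from them.

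The direction of a difference was related to the level of the gene. Genes were put in 5 bins of equal size by level. In the lowest bin by mean over the 6 compound libraries, with a median of 0.465 CPM, 13.2% were called higher with lefamulin and 2.32% lower, and the median difference was 0.33. In the highest bin, with a median of 162 CPM, 12.6% were called higher and 46.7% lower, and the median difference was -0.08. The list counts given above are to be read beside these shares. Long non-coding RNA genes were called higher in 208 of 1483 cases and lower in 64, and protein-coding genes higher in 2399 of 12250 and lower in 2919. By level, the median difference was 0.37 for protein-coding and 0.36 for long non-coding genes under 1 CPM, 0.22 for each from 1 to 5 CPM, and -0.09 and -0.29 from 100 CPM, where only 11 genes were non-coding. The shares called differed more: from 5 to 20 CPM, 29.7% of protein-coding and 17.8% of long non-coding genes were higher. No test was made of this description. A count in all 3 lefamulin libraries and in no retapamulin library was found for 104 genes of the whole table, and the reverse for 20, with no more than 18 counts summed over a group for any of these. That more genes had a count with lefamulin, as given above, moves with this pattern, and its part in the differences of low genes was not tested.

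**Figure D5:**
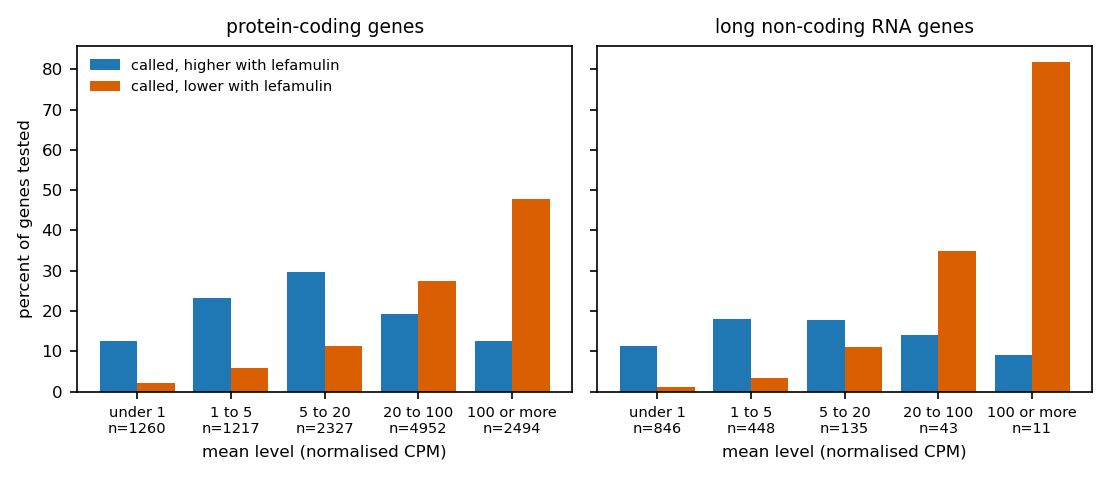
Percent of genes tested that were called higher (blue) or lower (orange) with lefamulin, by mean level in the 6 compound libraries, for protein-coding genes (left) and long non-coding RNA genes (right), with the number of genes under each pair of bars. From under 1 CPM to 100 CPM or more the share called lower grows in both types.

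Divergent non-coding partners start near a coding gene and are read from the opposite strand. Of 151 pairs in which both were tested, 35 partners were called higher with lefamulin and 1 lower, with a median of 0.38, while 29 hosts were called higher and 50 lower, with a median of -0.04. These values lie near those of low genes of either type, as given above, and no trait of divergent partners is read from them. Both partners of a pair were called in 18 cases, and in 11 of these they went in opposite directions. INSIG1-DT is 1 of them. The partner called lower was ZC3H12A-DT, at 7.44, 4.83 and 6.10 CPM with lefamulin and 16.0, 16.8 and 16.5 CPM with retapamulin (-1.43 ± 0.14, edgeR adjusted p 1.96e-08), whereas its host ZC3H12A, an RNase that degrades cytokine mRNAs, was higher at 160.3 ± 4.74 against 134 ± 3.18 CPM (0.26 ± 0.04). SOCS3, a feedback inhibitor of cytokine receptors, was lower (-0.26) and SOCS3-DT higher (0.69). Without the strand of the reads, counts where a pair overlaps are uncertain.

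For most genes the compounds gave close levels. The 95% interval of the difference lay within 1.5-fold in either direction for 9713 genes and within 1.2-fold for 5352, the latter 37.7% of those tested. Of the 5689 called genes, 4152 had an interval within 1.5-fold, so that a call and a close level often went together. For the 8518 genes not called, a difference is not shown to be absent. At an unadjusted p under 0.05 there were 6770 genes.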

How the data were processed

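The sources used here do not give the genome build, the tool versions or whether counting used strand. HISAT2 and HTSeq are named, per the submitters' processing notes, and the deposited counts per gene are whole numbers that are not normalised. FPKM values of the same genes, deposited by the authors and by that unit scaled to gene length and depth, entered only as an alternative. An extraction protocol in the labels speaks of mouse epidermis, which does not match HaCaT cells, and was not used.

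Counts of all 12 libraries were fitted with edgeR 4.0.16 in R 4.3.3 (quasi-likelihood, TMM scaling, filterByExpr on the 4 groups, no covariate). The contrast was lefamulin minus retapamulin, 1 pair of compounds, and genes with a Benjamini-Hochberg adjusted p under 0.05 over all genes tested were called. Levels are CPM on TMM-scaled library sizes. The steps were tested on simulated data. Alternatives used DESeq2 1.42.0 and limma 3.58.1.

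The comparison and the 70 gene lists were chosen with earlier results of these data known, and 36 lists are described. Of their 1338 entries 1309 were matched by symbol and 118 of those were not tested. Genes were named by rule: the 15 called each way with the largest difference among those with a mean of at least 5 CPM in either compound group and no overlap of libraries, up to 2 each way per list, TNF and HNRNPU, and the 5 each way with the largest difference among those of at least 500 CPM. Other genes that are named (among them NPC1, ACLY, FADS2, FASN, SCD, CCL2, CCL5, CXCL8, IL1RN, IL36G, CSF3, LIF, IL6, S100A8, S100A9, RNASE7, KLF6, LAMB3, HSPA5, CENPF, MCM2, ZC3H12A, SOCS3 and SOCS3-DT) were chosen after their values were seen. Some genes that the rule names are not reported here. Promoters are those of RefSeq on GRCh38.p14, listed for 11129 of the 14207 genes tested.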

Additional observations from a re-analysis of the deposited data

How the results depend on the processing

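Under the other settings 4787 to 6220 genes were called, except 1189 when a difference beyond 1.2-fold was tested for, and 0 genes called here were called in the opposite direction in any of them. Of those called beyond 1.2-fold, 681 were higher and 508 lower, 57.3% higher, with 215 at least 2-fold higher. The share of called genes that were higher was 36.8% with RLE size factors, 36.4% with DESeq2 and 72.8% on library totals alone (4436 higher, 1660 lower). On log2 FPKM it was 72.4% with a pseudocount of 1 (4171 and 1593, at least 2-fold 19 and 22), 73.6% with 0.1 (4289 and 1539, at least 2-fold 187 and 49) and 71.9% with a pseudocount of 1 and no filter (1493 lower, at least 2-fold 19 and 22). With a minimum of 1 CPM in 3 libraries 215 genes were at least 2-fold higher. Leaving out 1 library gave 4787 to 5140 calls, 2212 to 2322 higher and 2553 to 2818 lower, 311 to 378 and 87 to 102 of them at least 2-fold, and 9445 to 9487 genes within 1.5-fold. On library totals and log2 FPKM (pseudocounts 1 and 0.1, and 1 with no filter) list medians near 0 changed sign: sterol sensing to 0.0521, 0.0496, 0.0519 and 0.0496, NF-kB to 0.0709, 0.0686, 0.0706 and 0.0686, EGF family to 0.0309, 0.0049, 0.0226 and 0.0049, and mitochondrial mRNAs to 0.0797, 0.0804, 0.0805 and 0.0804. With the 6 compound libraries alone the last was 0.0010. Without 1 library, medians ran from -0.0207 to 0.258 for CXC chemokines, -0.0331 to 0.0051 for NF-kB and -0.0628 to 0.0334 for mitochondrial mRNAs. The cause was not tested. Of 135 named genes that were called, 38 lost the call under at least 1 setting, 0 of them changed direction, and 9 of the uncalled gained a call. Replicate numbers did not pair the libraries (correlations of same-numbered deviations -0.0917, 0.000176 and -0.0635), and with the replicate number as a block 5611 genes were called. Depth limits genes under about 1 CPM most.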

Other observations

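Of 430 pairs of a gene and an antisense RNA named for it in which both were tested, 59 antisense RNAs were called higher with lefamulin and 4 lower, with a median difference of 0.22, while 75 of the genes they are named for were called higher and 132 lower, with a median of -0.04. All long non-coding genes tested were higher in 208 of 1483 cases and lower in 64, with a median of 0.23, so nothing particular to antisense RNAs is read from these counts. Both members of a pair were called in 30 cases, and in 12 of these they went in opposite directions. Without the strand of the reads, the counts of the members of such a pair cannot be told apart where they overlap.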
